A study of Danio rerio with 4 samples.

Results

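The 56 genes described here encode proteins of pre-mRNA splicing and heterogeneous nuclear ribonucleoproteins (hnRNPs) on a zebrafish oligonucleotide array. They are the genes whose array probes carry a RefSeq accession with a symbol beginning hnrnp, srsf, snrp, sf3a or sf3b, or named lsm1 to lsm8, out of 11668 genes with a symbol on the array. They comprise 15 hnrnp, 16 srsf, 11 snrp, 9 sf3a and sf3b and 5 lsm genes, covered by 84 probes. Each of the 56 genes had a probe whose Cy3 and Cy5 signals both stood well above background on every one of the 4 arrays, so the filter on dim probes removed none of them.

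RNA came from whole zebrafish embryos injected at the 1-cell stage with 2 to 3 nl of a morpholino against Bad, a pro-apoptotic BH3-only protein, and from wild-type embryos of the same age. Morphants labelled "Bad deficiency" and wild-type controls were collected at 12 and 24 hours post fertilization (hpf), in 2 biological replicates per age with 200 embryos per group. Each replicate was 1 two-colour array, on which Cy5 carried morphant RNA and Cy3 wild-type RNA. The labels name no strain, no control morpholino and no dye swap, so the morpholino, the injection and the dye cannot be told apart within a ratio.

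Splicing removes introns through the spliceosome, whose small nuclear ribonucleoproteins (snRNPs) are built on rings of Sm proteins (snrp genes) or Lsm proteins (lsm genes). The SF3a and SF3b complexes belong to the U2 snRNP and hold the branch point of the intron, SR proteins (srsf genes) bind exons and help to define splice sites, and hnRNPs coat nascent transcripts and often counteract SR proteins.

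Median spot signals were 52 to 76 in Cy3 and 88.5 to 136 in Cy5, over median local backgrounds of 29 to 32 and 48.5 to 49. Of 28320 probes kept, 10206 genes could be tested, each through its brightest probe. The probe taken for the targeted gene, badb, had log2 ratios of morphant over wild type of -0.30 and -0.20 at 12 hpf and of -0.42 and -0.20 at 24 hpf. It was lower at both ages (limma adjusted p = 0.0359 and 0.0161). Whether this morpholino acts on splicing or on translation is not given in the sources used here, so the mRNA level does not measure the loss of the protein. Among 14 tested markers of muscle, lens and blood that rise with age, 10 were higher in morphants at 24 hpf, and of 9 markers of presomitic mesoderm and of maternal RNA 6 were lower. The part of such differences of stage or tissue in the results below was not tested. In whole embryos, fewer cells of a type and less RNA per cell cannot be told apart.

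The first question was which of these genes differed between morphants and wild type at each age. The genes for the Sm ring, a group formed after their values were seen, lay above 0. SR protein genes were called in both directions, and the SF3 genes stayed near 0. At 12 hpf 12 of 56 genes were higher in morphants (12.4% of all tested genes were called higher) and 5 were lower (10.9% of all tested genes). At 24 hpf 11 genes were higher (12.1% of all) and 5 lower (14.1% of all). The calls come from limma with Benjamini-Hochberg adjustment over all kept probes at a threshold of 0.05. The median log2 ratio of the 56 genes was 0.04 at 12 hpf and 0.05 at 24 hpf, against -0.001 and -0.003 over all tested genes.

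These counts rest on the way the spot signals were corrected. With plain background subtraction limma called 0 of 56 genes in either direction at 12 hpf, with 11 higher and 7 lower at an unadjusted p under 0.05. At 24 hpf it called 0 in either direction, with 11 higher and 6 lower at an unadjusted p under 0.05. Over all genes that setting called 1.90% higher and 1.6% lower at 12 hpf, and 0% in either direction at 24 hpf. With the scanner software's processed signals limma called 1 higher, srsf2b, and 0 lower at 12 hpf, with 9 lower at an unadjusted p under 0.05. At 24 hpf it called 0 in either direction, with 10 higher and 9 lower at an unadjusted p under 0.05. Leaving out 12 hpf replicate 1 left a median log2 ratio of 0.05 over the 56 genes at that age. Without 24 hpf replicate 1 or 2 the 24 hpf median was 0.05 or 0.01. In each case fewer of the 56 genes, and a smaller share of all tested genes, were called at that age.

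Brightness was unevenly spread over these genes. Of the 56 genes 16 lay among the 276 tested genes with a mean log2 signal of 15 or more, where the median ratio of all genes was 0.13, 0.14, 0.13 and 0.10 on the 4 arrays. In that range 34.1% of all genes were called higher at 12 hpf and 33.7% at 24 hpf, and of the 16 genes 2 and 3 were. At a mean log2 signal from 13 to 15, 8 of 26 genes were higher at 12 hpf and 6 at 24 hpf, where the shares of all genes were 11.3% and 12.8%. Of the lower calls, 3 of 5 at 12 hpf and 2 of 5 at 24 hpf lay in the brightest range, where 6.88% and 9.06% of all genes were called lower.

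**Figure D1:**
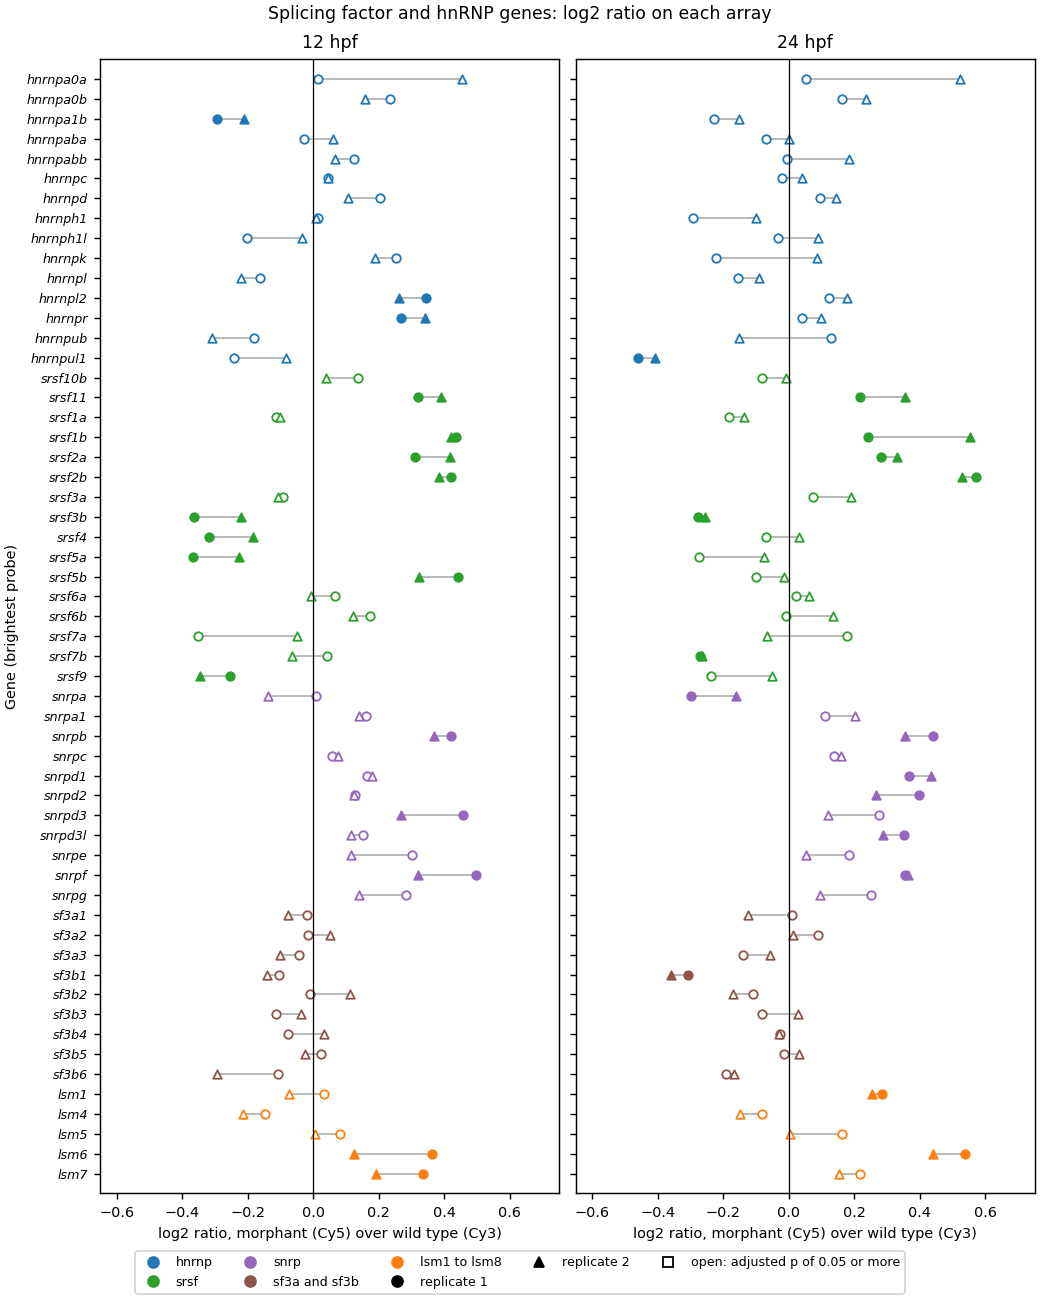
Each row is 1 gene, read by its brightest probe, and each point is the log2 ratio of morphant (Cy5) over wild type (Cy3) on 1 array, with circles for replicate 1, triangles for replicate 2 and filled symbols for genes with an adjusted p under 0.05 at that age. Colours mark the families. The purple snrp rows lie mostly to the right of 0 at both ages, and the green srsf rows lie on both sides of it.

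Of the 56 genes 7 were called higher at both ages, namely lsm6, snrpb, snrpf, srsf11, srsf1b, srsf2a and srsf2b, and 1, srsf3b, was called lower at both. No gene was called in opposite directions at the 2 ages (0 of 56), and 31 genes were called at neither. The shares of all tested genes with these patterns are not given here, so the counts cannot be read as particular to the 56 genes. Both arrays of an age had the same sign for 29 genes above 0 and 18 below 0 at 12 hpf, and for 26 and 19 at 24 hpf. Over all tested genes 37.9% were above 0 on both 12 hpf arrays and 37.8% below, and 37.4% and 39.3% on both 24 hpf arrays.

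The snrp genes formed the most uniform family in the sign of their ratios, though not in their size. Of 11 genes limma called 3 higher and 0 lower at 12 hpf (0 lower at an unadjusted p under 0.05), and 5 higher and 1 lower at 24 hpf. The shares at 12 hpf were 27.3% higher and 0% lower, against 12.4% and 10.9% of all tested genes. At 24 hpf they were 45.5% and 9.09%, against 12.1% and 14.1%. Their median log2 ratio was 0.17 and 0.20. On all 4 arrays 10 of 11 were above 0, as were 20% of all tested genes.

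Within this family the 8 genes for proteins of the Sm ring, a group formed after their values were seen and not tested, were above 0 on every array. Each of these 8 genes has 1 probe, so none could be compared with a second probe. Their ratios on single arrays lay between 0.05 and 0.50. With every alternative correction of the ratios all 8 remained above 0 at both ages. Apart from median centring, the medians were 0.16 to 0.29 at 12 hpf and 0.28 to 0.35 at 24 hpf. With median centring the ratios of all genes shifted upward too, and the medians were 0.90 and 0.93. These settings re-use the same arrays, so they are no independent check of a group picked by its values.

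The gene snrpb, which encodes SmB, had wild-type log2 levels of 16.44 and 16.47 at 12 hpf and of 16.16 and 16.35 at 24 hpf. Its morphant levels were 16.86 and 16.84 at 12 hpf and 16.60 and 16.70 at 24 hpf. At each age the morphant values lay above both wild-type values. The ratios were 0.39 ± 0.04 (SD, n = 2 arrays) at 12 hpf and 0.40 ± 0.06 (SD, n = 2 arrays) at 24 hpf (limma adjusted p = 0.00292 and 0.00308).

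This probe is the brightest of the 56 genes, in the range where the ratios of all genes lay above 0. With a loess span of 0.1 its ratios were 0.25 and 0.27 (limma adjusted p = 0.0204 and 0.017), and with the processed signals 0.20 and 0.21 (adjusted p = 0.144 and 0.162). The gene snrpf, for SmF, has a dimmer probe. Its ratios were 0.50 and 0.32 at 12 hpf and 0.35 and 0.36 at 24 hpf, with means of 0.41 and 0.36 (limma adjusted p = 0.00344 and 0.0064). Leaving out either 24 hpf array ended its 24 hpf call, with adjusted p = 0.0524 and 0.0553.

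Of the other 6 Sm ring genes 4 were called at 1 age and 2 at neither. The gene snrpd3, for SmD3, was higher at 12 hpf, at 0.36 (adjusted p = 0.00818), with 0.20 at 24 hpf (adjusted p = 0.0853). At 24 hpf snrpd1 was higher at 0.40 (adjusted p = 0.00268), snrpd2 at 0.33 and snrpd3l, a relative of snrpd3, at 0.32. The snrpd1 probe lies in the brightest range, where 33.7% of all genes were called higher at 24 hpf. The values of snrpe and snrpg did not pass at either age, at 0.21 for both at 12 hpf and at 0.12 and 0.17 at 24 hpf. Limma called the difference between ages for 0 of the 11 genes (1 higher and 0 lower at an unadjusted p under 0.05), so a call at 1 age does not show that the ages differ. Of the genes specific to the U1 and U2 snRNPs, snrpa, for a U1 protein, was lower at 24 hpf, at -0.23 (adjusted p = 0.0434). Its second probe gave -0.09 and did not pass (adjusted p = 0.361). The values of snrpc, for another U1 protein, and snrpa1, for a U2 protein, were 0.07 and 0.15 at 12 hpf and did not pass.

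The srsf genes moved in both directions. Of 16 genes 5 were higher and 4 lower at 12 hpf (31.2% and 25%, against 12.4% and 10.9% of all tested genes). At 24 hpf 4 were higher and 2 lower (25% and 12.5%, against 12.1% and 14.1%). The share lower at 24 hpf was thus near that of all genes. The srsf median was 0.01 at each age. The gene srsf2b, an orthologue of human SRSF2 (SC35), which marks nuclear speckles, had wild-type log2 levels of 12.55 and 12.71 at 12 hpf and 12.24 and 12.35 at 24 hpf. Its morphant levels were 12.97 and 13.10 at 12 hpf and 12.81 and 12.88 at 24 hpf, above both wild-type values of the same age. The ratio was 0.40 ± 0.03 at 12 hpf and 0.55 ± 0.03 at 24 hpf (SD, n = 2 arrays, limma adjusted p = 0.00231 and 0.000579). It was the largest ratio of the 56 genes at 24 hpf. With plain subtraction the ratios were 0.40 and 0.56 and did not pass (adjusted p = 0.0601 and 0.0772).

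The paralogue srsf2a rose as well, by 0.37 and 0.31 (adjusted p = 0.00448 and 0.0105). The gene srsf11 was higher at both ages, by 0.35 and 0.29 (adjusted p = 0.0058 and 0.016). Its probe lies in the brightest range, where 34.1% and 33.7% of all genes were called higher at 12 and 24 hpf. On the other side srsf3b, for the smallest SR protein, had ratios of -0.36 and -0.22 at 12 hpf and -0.28 and -0.26 at 24 hpf (means of -0.29 and -0.27, adjusted p = 0.0134 and 0.0203). The genes srsf9, srsf5a and srsf4 were lower at 12 hpf, with means from -0.30 to -0.25, and srsf7b was lower at 24 hpf on its brightest probe, at -0.27. Its other probes gave 0.08 and 0.09 and did not pass (adjusted p = 0.37 and 0.351).

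The gene srsf5b differed between the ages. Its ratios were 0.44 and 0.32 at 12 hpf and -0.10 and -0.01 at 24 hpf. Both 12 hpf arrays lay above both 24 hpf arrays, and such a separation was required for naming a gene in this comparison. The difference of -0.44 ± 0.09 (SE) passed (limma adjusted p = 0.0229). It rests on 1 of 3 probes. The dimmer probes gave 0.04 and 0.06 at 12 hpf, and with the mean of the probes the difference was -0.23 (adjusted p = 0.155). Leaving out 12 hpf replicate 1 or 24 hpf replicate 1 also ended the call (adjusted p = 0.0938 and 0.1), as did plain subtraction (-0.43, adjusted p = 0.199) and the processed signals (-0.48, adjusted p = 0.158).

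Of the 56 genes, limma called 1, srsf5b, lower at 24 than at 12 hpf in its ratio, and 0 higher, with 5 higher at an unadjusted p under 0.05. Over all tested genes 6.83% were called lower and 3.98% higher.

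The genes of the SF3a and SF3b complexes stayed close to 0. At 12 hpf limma called 0 of 9 in either direction (0 higher and 1 lower at an unadjusted p under 0.05). Over all tested genes 12.4% were called higher and 10.9% lower at that age. At 24 hpf 1, sf3b1, was lower and 0 were higher, against 14.1% and 12.1% of all tested genes. The family medians were -0.05 and -0.06, and ratios of these 9 genes on single arrays ran from -0.36 to 0.11. The gene sf3b1, whose human orthologue is often mutated in myelodysplastic syndrome, had ratios of -0.10 and -0.14 at 12 hpf and of -0.31 and -0.36 at 24 hpf. The 24 hpf mean was -0.33 (adjusted p = 0.00604), but its second probe gave -0.04 (adjusted p = 0.679). The gene sf3b6, for the p14 protein next to the branch point, had means of -0.20 and -0.18 that did not pass (adjusted p = 0.0668 and 0.0917).

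Of 5 lsm genes limma called 2 higher at each age, lsm6 and lsm7 at 12 hpf and lsm6 and lsm1 at 24 hpf. That is 40% at each age, against 12.4% and 12.1% of all tested genes. It called 0 lower at either age (1 at 12 hpf and 0 at 24 hpf at an unadjusted p under 0.05). Over all tested genes 10.9% and 14.1% were called lower. The gene lsm6, a subunit of both the nuclear and the cytoplasmic Lsm ring, had ratios of 0.36 and 0.13 at 12 hpf and 0.54 and 0.44 at 24 hpf (means of 0.24 and 0.49, limma adjusted p = 0.0442 and 0.00236). Without 12 hpf replicate 1 its 12 hpf value was 0.13 (adjusted p = 0.47). The gene lsm7, which shares both rings, was higher at 12 hpf on both of its probes, at 0.26 and 0.35 (adjusted p = 0.021 and 0.00622). At 24 hpf its brighter probe, at 0.185, did not pass (adjusted p = 0.0765), and its dimmer one, at 0.25, was called higher (adjusted p = 0.0273). The gene lsm1, which marks the cytoplasmic ring of mRNA decay, was at 0.27 at 24 hpf (adjusted p = 0.0176).

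Of 15 hnrnp genes 2 were higher and 1 lower at 12 hpf, or 13.3% and 6.67%, against 12.4% and 10.9% of all tested genes. At 24 hpf limma called 0 higher (3 at an unadjusted p under 0.05) and 1 lower, against 12.1% and 14.1% of all. The family medians were 0.05 and 0.01. The gene hnrnpl2, a relative of the exon-silencing protein hnRNP L, was higher at 12 hpf, at 0.30 (adjusted p = 0.00953). The value for hnrnpl itself was -0.19 on its brighter probe (adjusted p = 0.0596). Its dimmer probe gave -0.33 and was called lower (adjusted p = 0.00618). The gene hnrnpa1b, of the hnRNP A1 type that antagonizes SR proteins, was lower at 12 hpf, at -0.25 (adjusted p = 0.0214).

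The gene hnrnpr was higher at 12 hpf on its brighter probe (0.31, adjusted p = 0.00915) and at -0.01 on its dimmer one. The gene hnrnpul1, for a U-like hnRNP, was lower at 24 hpf on its brightest probe, with ratios of -0.46 and -0.41 (mean -0.44, adjusted p = 0.00256). Its other probes gave 0.07 and 0.08. The gene hnrnpa0a did not pass, and its ratios of 0.02 and 0.46 at 12 hpf and 0.05 and 0.52 at 24 hpf split by replicate at both ages.

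Several probes measured the same transcript for 24 of the 56 genes, and they often disagreed. Of these genes 4 were called by their brightest probe at 12 hpf and 5 at 24 hpf. All probes were called the same way for 1 of the 4 (lsm7) and for 1 of the 5 (srsf1b). The gene srsf1b, a paralogue of the first SR protein described (SF2/ASF), showed both outcomes. Its brighter probe gave 0.43 and 0.40 at 12 and 24 hpf and its dimmer probe -0.03 and 0.35 (adjusted p = 0.818 and 0.00945). In the other direction, another probe was called while the brightest was not in 6 genes at 12 hpf and in 3 at 24 hpf. Of these srsf7a had a dimmer probe at -0.56 and -0.40 (adjusted p = 0.00128 and 0.00668). At 12 hpf such probes of hnrnpaba, hnrnpl, srsf1a and srsf3a gave -0.40, -0.33, -0.36 and -0.24. For hnrnpul1 such a probe was called higher at 12 hpf, at 0.315, where the brightest gave -0.16. At 24 hpf such probes of lsm7 and srsf3a were called higher, at 0.25 and 0.27. The other 32 genes have 1 probe. Of them 8 were higher and 5 lower at 12 hpf, and 10 were higher and 1 lower at 24 hpf. Among all tested genes, each read by its brightest probe, higher calls made up 12.4% at the younger age and 12.1% at the older. Lower calls made up 10.9% at the younger age and 14.1% at the older.

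**Figure D2:**
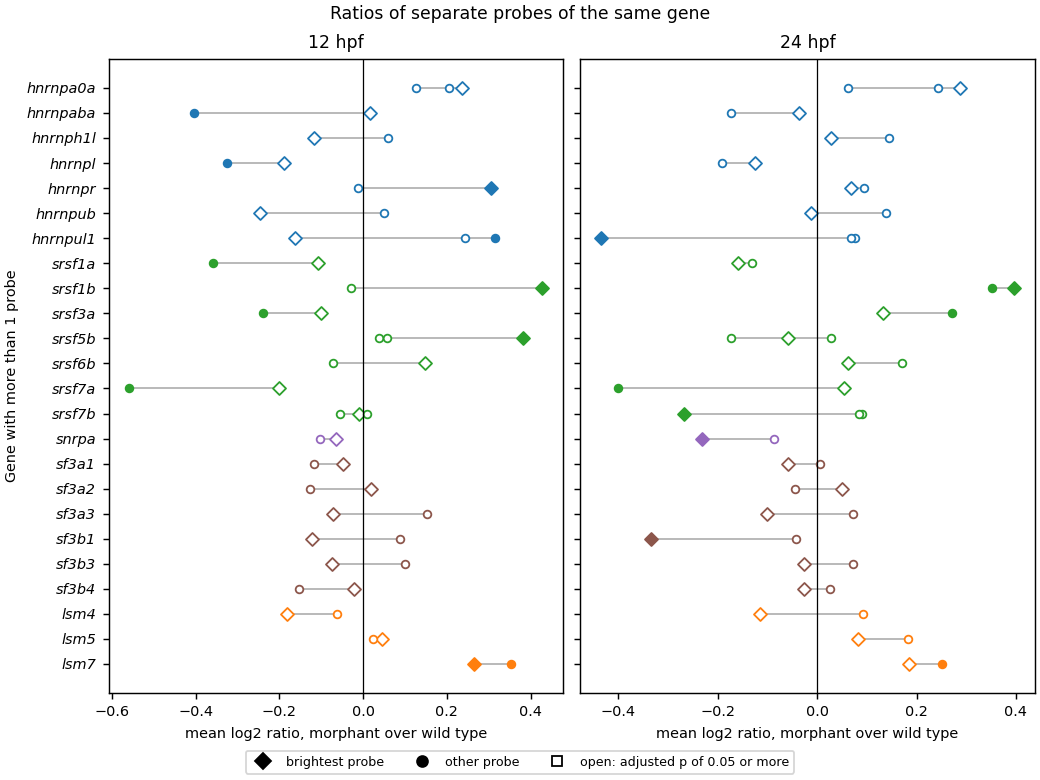
Mean log2 ratio of morphant over wild type at 12 hpf (left) and 24 hpf (right) for each probe of the 24 genes with more than 1 probe, with diamonds for the brightest probe, circles for the others and filled symbols for an adjusted p under 0.05. Both lsm7 probes lie to the right of 0 at both ages, and for hnrnpul1 at 24 hpf the filled diamond at -0.44 stands apart from the other probes at 0.07 and 0.08.

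Zebrafish keeps many of these genes as paralogue pairs, and 11 such pairs could be set side by side on the same arrays. The ratio of srsf1a was lower than that of srsf1b on all 4 arrays, by -0.55 and -0.52 at 12 hpf and by -0.42 and -0.69 at 24 hpf. The ratio of srsf5a lay below that of srsf5b, by -0.81 and -0.55 at 12 hpf and by -0.17 and -0.06 at 24 hpf. The ratio of hnrnpl lay below that of hnrnpl2 by -0.51 and -0.48, and then by -0.28 and -0.27. For srsf3a and srsf3b the first was higher on all 4 arrays, by 0.27 and 0.11 and by 0.35 and 0.45. The pair hnrnpa0a and hnrnpa0b split by replicate instead, at -0.22 and 0.30 and at -0.11 and 0.29. These differences were not tested. The separate probes of 1 gene spanned a median of 0.18 at 12 hpf and 0.13 at 24 hpf. Each gene of a pair is read by its brightest probe only. At 12 hpf the probes of srsf1b spanned 0.46 and those of srsf5b 0.34, so the 12 hpf differences of these pairs depend on the probe. The dimmer srsf1b probe gave -0.03 at 12 hpf, near the srsf1a value of -0.11. For the srsf3 pair too the 12 hpf difference depends on the probe. The dimmer srsf3a probe gave -0.24 at 12 hpf, near the srsf3b value of -0.29. At 24 hpf it gave 0.27, with srsf3b at -0.27.

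**Figure D3:**
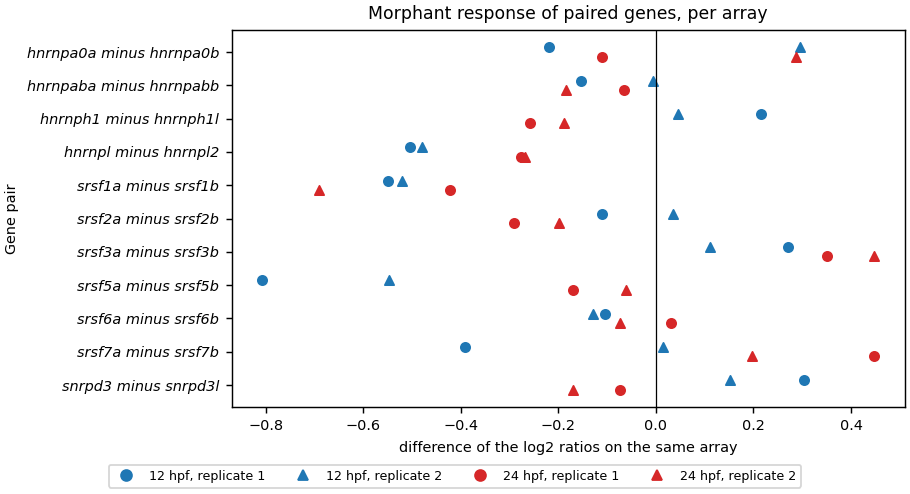
Difference between the log2 ratios of the 2 genes of a pair on the same array, in blue at 12 hpf and red at 24 hpf, with circles for replicate 1 and triangles for replicate 2. All 4 points of srsf1a minus srsf1b lie left of 0, between -0.69 and -0.42, and the points of hnrnpa0a minus hnrnpa0b lie on both sides of 0.

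The second question was how these genes change in the wild type between 12 and 24 hpf. Most of them fell. Of 56 genes 43 were lower at 24 hpf, where 40.2% of all tested genes were called lower, and 3 were higher, where 34.6% of all were called higher. The median change was -0.51 on the log2 scale, against -0.07 over all tested genes. These values come from the same Cy3 samples that form the ratios above, and they are set side by side only.

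The fall ran through nearly all families. All 9 SF3 genes were lower, by -0.84 to -0.22, as were 12 of 15 hnrnp, 9 of 11 snrp and 11 of 16 srsf genes. Of 5 lsm genes 2 were lower. The family medians were -0.69 for hnrnp, -0.55 for snrp, -0.53 for SF3, -0.35 for srsf and -0.21 for lsm.

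The largest fall was that of hnrnpk, for a KH-domain protein that binds C-rich sequence. Its wild-type log2 level was 11.30 and 11.02 at 12 hpf and 8.49 and 8.31 at 24 hpf. Every 24 hpf value lay below every 12 hpf value, which was a condition for naming a gene in this comparison. The difference of -2.76 ± 0.12 (SE), a 6.76-fold fall, passed the test (limma adjusted p = 5.49e-06), and over the alternatives it ran from -3.21 to -2.62. In morphants hnrnpk was at 11.55 and 11.21 at 12 hpf and at 8.27 and 8.40 at 24 hpf, and its ratios to wild type did not pass at either age (adjusted p = 0.0781 and 0.583).

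The SR gene srsf3a fell from 15.38 and 15.34 to 14.11 and 13.99, a difference of -1.31 (adjusted p = 2.76e-05), and srsf3b fell by 1.04. Among the hnRNPs hnrnpub fell by 1.30, hnrnpabb by 1.25, hnrnph1l by 1.15, hnrnpl by 1.15 and hnrnpd by 1.04. The 12 and 24 hpf wild-type levels of these 7 genes did not overlap, which was a condition for naming them. The 3 genes that rose, named here after their values were seen, were lsm4 by 0.84, srsf7b by 0.78 and hnrnph1 by 0.72 on the log2 scale (adjusted p = 0.000404, 0.000179 and 0.000248), each by its brightest probe. The second lsm4 probe gave 0.61 and was called higher too. The other srsf7b probes gave -0.25, called lower (adjusted p = 0.0256), and -0.11, which did not pass, so the direction of srsf7b depends on the probe. The gene hnrnph1 has 1 probe. The paralogue-like pair hnrnph1 and hnrnph1l therefore changed in opposite directions.

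**Figure D4:**
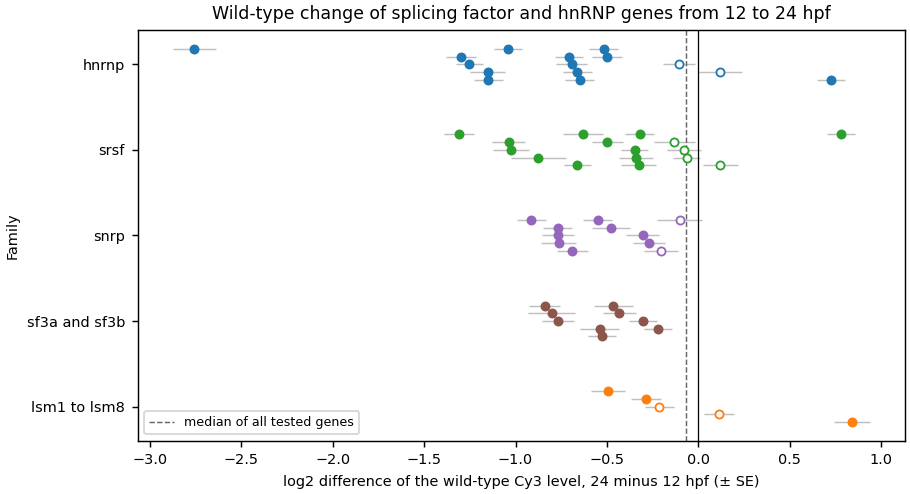
Change of the wild-type Cy3 level from 12 to 24 hpf on the log2 scale for each gene, by family, with bars for the standard error, filled points for an adjusted p under 0.05 and a dashed line at the median of all tested genes (-0.07). All 9 SF3 points lie left of 0, hnrnpk stands alone at -2.76, and 3 filled points (lsm4, srsf7b and hnrnph1) lie right of 0, each by its brightest probe.

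The fall was present with each scaling of Cy3. Of the 16 genes in the brightest range 12 fell, where 27.2% of all genes did. When each array's Cy3 was centred on its median, or the processed signal was scaled to its 75th percentile, all genes shifted down. Their medians were -0.36 and -0.33, and 55.6% and 47.1% of all tested genes were called lower. Of the 56 genes 53 were called lower with either. For 24 genes with several probes, 18 were called by the brightest probe, and in 17 of them all probes were called the same way. The exception was srsf7b, with 2 of its 3 probes called in opposite directions. In 5 other genes another probe was called lower while the brightest was not called. The brighter srsf1b probe changed by 0.12 (adjusted p = 0.303) and the dimmer one by -1.59. For srsf1a the values were -0.08 and -1.41, for hnrnpaba -0.11 and -1.44, and for lsm5 0.11 and -0.35. Of the 3 srsf5b probes 1 was called lower, at -0.61, and the brightest gave -0.13. These 6 genes are not settled by 1 probe. Among the stage markers 13 of 14 genes of muscle, lens and blood rose in the wild type and 8 of 9 of presomitic mesoderm and maternal RNA fell.

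The wider splicing machinery was described with lists of genes outside the 56. The shares over all tested genes were 12.4% for higher and 10.9% for lower calls at 12 hpf and 12.1% and 14.1% at 24 hpf, and no list was tested against them. Of 10 genes for U2 recruitment and branch-point recognition 1 was lower at 12 hpf (10%) and 4 were lower at 24 hpf (40%). Limma called 0 higher at either age (0 at 12 hpf and 1 at 24 hpf at an unadjusted p under 0.05). The gene puf60a, for a poly-U-binding partner of U2AF, was lower at both ages (-0.26 and -0.29, limma adjusted p = 0.0178 and 0.0105), and cherp was lower at 24 hpf (-0.28, adjusted p = 0.0155). Of 26 genes of the tri-snRNP and U5 snRNP 1 was higher and 4 lower at 12 hpf (3.85% and 15.4%), and 6 were higher and 2 lower at 24 hpf (23.1% and 7.69%). The gene wbp4, for a WW-domain protein of the spliceosome, was higher at both ages, at 0.70 and 0.63 (adjusted p = 0.000269 and 0.000582).

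In the Prp19 complex and activated spliceosome 4 of 28 genes were higher and 2 lower at 12 hpf (14.3% and 7.14%), and 2 were higher and 4 lower at 24 hpf (7.14% and 14.3%). The gene cdc5l, for a core subunit of that complex, had ratios of -0.85 and -0.80 at 12 hpf and -0.86 and -0.65 at 24 hpf (adjusted p = 0.000139 and 0.000283). All 4 arrays were low, and this was the largest fall in that list at either age. The cyclophilin gene ppwd1 was higher at both ages, at 0.62 and 0.40 (adjusted p = 0.000269 and 0.00311).

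Among 15 genes of the exon junction complex and mRNA export 1 was higher and 6 lower at 12 hpf (6.67% and 40%, against 12.4% and 10.9% of all tested genes), and 1 was higher and 4 lower at 24 hpf (6.67% and 26.7%, against 12.1% and 14.1%). The higher gene was rbm8a, for the Y14 subunit of the exon junction complex, at 0.39 and 0.44 (adjusted p = 0.00633 and 0.00376). The gene upf3b, which links that complex to nonsense-mediated decay, was lower at -0.63 and -0.62 (adjusted p = 0.000891 and 0.00112). Of 17 genes listed for the SMN complex and snRNP assembly 2 were higher and 3 lower at 12 hpf (11.8% and 17.6%), and 1 was higher and 1 lower at 24 hpf (5.88% each). The 2 higher at 12 hpf were lsm14b and usb1. The largest ratio in this list at that age was 1.23. The ratio of usb1, for the enzyme that trims U6 RNA, was 0.34 at 12 hpf and 0.89 at 24 hpf, and the difference passed (0.55, adjusted p = 0.0115). With plain subtraction or the processed signals it did not pass, since limma called 0% of all probes for that difference.

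Of 12 SR protein kinases and SR-like regulators 3 were higher and 1 lower at 12 hpf (25% and 8.33%), and 2 were higher and 1 lower at 24 hpf (16.7% and 8.33%). The gene tra2a, an SR-like exon activator, was higher at both ages (0.44 and 0.31, adjusted p = 0.00226 and 0.0123), and the kinase gene clk2a was lower at 24 hpf (-0.46, adjusted p = 0.00273). Of 51 tissue and other splicing regulators 7 were higher and 5 lower at 12 hpf (13.7% and 9.80%), and 7 were higher and 6 lower at 24 hpf (13.7% and 11.8%), close to the shares over all tested genes (12.4% and 10.9%, then 12.1% and 14.1%). The gene ptbp2b, for a neural polypyrimidine tract-binding protein, had ratios of 1.03 and 0.84 at 12 hpf and 0.29 and 0.28 at 24 hpf (adjusted p = 7.1e-05 and 0.0192). The gene rbm5 was higher at 12 hpf (0.75, adjusted p = 6e-04) and lower at 24 hpf (-0.37, adjusted p = 0.0187), and the difference between the ages passed (-1.11, adjusted p = 0.00197). With plain subtraction limma called 0% of all probes at 24 hpf and 0% for the difference between ages. The 24 hpf calls of all these lists and the rbm5 difference therefore did not pass with that setting. For the difference 0% were also called with the processed signals, the deposited ratios and median centring.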

How the data were processed

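Total RNA was labelled from 1 µg per channel and hybridized to 4 two-colour Agilent arrays, all on 1 slide read in 1 scan, so slide and scan cannot be tested as batches. The scanner software was Agilent Feature Extraction 10.5.1.1, per the submitters' processing notes. The deposited spot and background values are fluorescence intensity, not normalized. The log10 ratio of Cy5 over Cy3 in the deposited value table equalled the scanner software's (largest difference 0). P-values rest on 2 arrays per age. The spread they use is pooled over all 4 arrays and moderated by limma toward that of all kept probes. It is therefore not the spread of the 2 arrays of an age alone.

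Background was corrected with normexp (offset 50) and ratios were normalized by loess within arrays, control spots left out. Symbols were matched from RefSeq accessions for 16770 of 19210 probes. Probes were kept where either channel stood well above background on both 12 hpf or both 24 hpf arrays, and a gene is read by its brightest probe. Ratios and Cy3 levels (after Aquantile) were fitted in limma 3.58.1 (R 4.3.3), two-sided, adjusted over 28320 probes at 0.05. The residual degrees of freedom were 2 and the prior ones 7.46 for ratios and 4.27 for Cy3. Named genes were the 8 largest calls per comparison, 2 per family and age, their paralogues, and 2 per list and age. Not all of the genes chosen from the lists are printed. The 8 were taken only from calls with the same direction on every array or array pair compared. One other gene chosen with these is not reported here. Members and lists were chosen with earlier results of these data known, and 4 of 20 alternative settings were added after results were seen.

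The procedure was tested on simulated arrays. It first failed the limit set for false calls when a curved dye effect was simulated. Of 175 calls at 12 hpf 32 were false. In the brightness range of these genes, a mean log2 signal of 9.01 to 16.57, 9 of 64 calls were false. Whether the other false calls lay at dimmer or brighter probes is not given here. The procedure passed only after the limit was applied to that range, where false calls still exceeded the nominal rate. Of 67 probes given a 1.25-fold difference 15 were recovered, as were 62 of 67 at 1.5-fold and 66 of 66 at 2-fold. The same-numbered replicates of the 2 ages did not deviate together (correlation -0.04 for ratios and -0.14 for Cy3, 28320 probes), so the numbers were not taken as pairs.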

Additional observations from a re-analysis of the deposited data

Results flagged for a closer look

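The morphant ratio of srsf5b was lower at 24 than at 12 hpf by -0.44 on the log2 scale (limma adjusted p = 0.0229), a difference between the ages that passed the test. Its 2 dimmer probes were near 0 at 12 hpf, at 0.04 and 0.06. With 2 arrays per age no check for a single outlying array could be made.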

How the results depend on the processing

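Of 20 alternative settings 16 were planned and 4 were added after results were seen. The loess span, the trend in the prior variance, its combination with plain subtraction and the crossed pairing are the added ones. Members higher and lower at 12 hpf were 12 and 5, and at 24 hpf 11 and 5. With plain background subtraction, with a trend or without, limma called 0 and 0 at either age, with 11 higher at an unadjusted p under 0.05 at both ages in each. With processed signals, with the deposited ratios and with median centring the counts were 1 and 0, then 0 and 0. Over all tested genes these 3 settings called 1.56% to 3.89% higher and 0.0588% to 3.45% lower at 12 hpf. At 24 hpf the shares were 0% to 0.0784% and 0% to 0.274%. The 12 hpf median was 0.024 with plain subtraction (trend or not), 0.008 with processed signals and deposited ratios, 0.693 with median centring and -0.014 with a span of 0.1. The 24 hpf median was -0.003, -0.003, 0.611 and 0.017 with the last 4. Median centring shifted all genes by 0.283 and 0.245, and it turned srsf3b to 0.482 and 0.43, srsf5a at 12 hpf to 0.472, and hnrnpul1 and sf3b1 at 24 hpf to 0.201 and 0.12. A span of 0.1 called 9 and 8 lower (10.9% and 13.8% of all tested genes), and the mean of a gene's probes 8 and 1 (10.1% and 12.4%). Members whose ratio fell between ages, 1 at the main setting, were 0 with plain subtraction (trend or not), processed signals, deposited ratios, median centring and the mean of probes. The mean of probes called 1, srsf3a (0.37, limma adjusted p = 0.0373), higher at 24 than at 12 hpf. The median difference was -0.05 with median centring and 0.024 with a span of 0.1. The cause of these changes was not tested.

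Without 1 array, members higher ranged from 6 to 10 at 12 hpf and 6 to 7 at 24 hpf, lower from 0 to 4 and 1 to 2, falling between ages from 0 to 1, and the medians from 0.044 to 0.048 and 0.014 to 0.046, and for the difference between ages from -0.025 to 0.015. The lone array of an age was then assumed to vary like the others. In the wild type 41 to 53 members were lower in every setting with all 4 arrays, against 34.5% to 55.6% of all tested genes. The medians were -1.119 (processed Cy3, 75th percentile), -1.09 (Cy3 median centring) and -0.662 (mean of probes) against -0.508. Without 1 array fewer members were called lower, with medians from -0.549 to -0.515. With the replicate block 1 member fell and 0 rose between ages and 41 were lower in the wild type. The crossed replicate block, tried since the same-number correlation of Cy3 was below -0.1, called 43 lower and 3 higher. Leaving the filter on dim probes out, or making it stricter, changed none of these counts of members called in any of the 4 comparisons. With 2 arrays per age, their number limits the precision of every value.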
